A study of Mus musculus with 28 samples.

Results

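The heat shock and DnaJ chaperone genes were followed in wounded mouse skin over 2 weeks of healing. Members were chosen by gene symbol. They were the Hsp70 genes (Hspa), the small heat shock protein genes (Hspb), Hspd1, Hspe1 and Hsph1, the Hsp90 genes, and the DnaJ genes of classes A, B and C, without symbols that end in -ps. Of 29068 genes in the table, 70 were members. Of these, 67 were among the 18107 genes that had enough counts to be tested. Dnajb7, Dnajc5b and Hspb9 were not tested, and they reached at most 8, 4 and 7 counts in a library. All 70 symbols were found in the mouse annotation GENCODE M21.

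RNA was sequenced from C57BL/6J mice (MLKL+/+) in 28 libraries, 4 for each of day 0, day 3, day 5, day 7, day 10, day 12 and day 14. The wound was a punch through the skin of the back down to the fascia, left to heal without treatment, and the wound tissue included the scab and the epithelial margin. They were 8 weeks old, and animals of both sexes were used, without a statement of which library came from which sex. Day 0 is the control in the labels, while the methods of the study count the day of injury as day 1, so it is not known here whether day 0 tissue was taken before or just after wounding. The labels give replicate numbers and do not say that the libraries of a day came from separate mice, so the p-values measure the spread between these libraries, which may in part be technical.

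Libraries held between 36706513 and 40655764 counts on genes, of which the chaperone genes took 0.640% to 0.818%. The day 0 libraries varied most, with a biological coefficient of variation of 26.4% against 5.70% to 10.8% within the later days. Within day 0, replicates 1 and 4 had higher summed levels of 12 skeletal muscle markers than replicates 2 and 3 (22480 and 24320 against 14760 and 15250 FPKM, fragments per kilobase of gene scaled to library size). The summed level of 7 fibroblast markers was lower in replicates 1 and 4 (5141 and 3066 against 11820 and 11390 FPKM), and that of 8 hair follicle markers ran from 108 to 819 FPKM. The labelled tissue was checked with 8 keratinocyte markers, whose summed level lay between 1716 and 4079 FPKM in every library. In bulk tissue, fewer cells of a type and less RNA per cell cannot be told apart.

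Chaperones keep other proteins folded. Hsp70 proteins bind exposed stretches of unfolded chains in a cycle driven by ATP, DnaJ proteins bring clients to Hsp70 and stimulate its ATPase, and Hsp110 proteins exchange its nucleotide. Hsp90 acts later, on signalling proteins and receptors, while small heat shock proteins hold unfolded proteins without ATP and are abundant in muscle and in the differentiating epidermis. Some members, many of them cytosolic, are known targets of heat shock factor 1, which binds heat shock elements. Several members of the endoplasmic reticulum (ER) are known targets of the unfolded protein response, which acts in part through the ER stress element.

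Promoter sequences are given for the 3 members whose window held an ER stress element, for the mitochondrial chaperonin gene that rose most on day 14, and for members among the largest rises and falls. RefSeq windows of 300 bases (build GRCm38.p6, the same coordinates as mm10) were at hand for 56 of the 70 members. Positions are counted from the RefSeq start, with -1 as the base just before it. The first 3 sequences carry the ER stress element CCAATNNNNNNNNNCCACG, searched on both strands and shown in capitals. The Hspa5 stretch (chr2:34772020-34772049, plus strand, -70 to -41) lies in the first exon of a longer GENCODE transcript, the Hsp90b1 stretch (chr10:86705510-86705594, minus strand, -150 to -66) upstream of the GENCODE gene, and the Dnajc3 stretch (chr14:118937782-118937931, plus strand, -150 to -1) likewise.
Hspa5: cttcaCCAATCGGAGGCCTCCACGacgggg
Hsp90b1: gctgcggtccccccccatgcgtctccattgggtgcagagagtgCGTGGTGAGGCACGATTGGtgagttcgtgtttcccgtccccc
Dnajc3: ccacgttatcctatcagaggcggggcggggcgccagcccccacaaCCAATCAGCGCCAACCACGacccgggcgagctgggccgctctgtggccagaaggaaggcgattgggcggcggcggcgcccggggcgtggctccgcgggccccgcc

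The next sequences show heat shock elements in capitals, in the 2-unit form GAANNTTC or TTCNNGAA, each of which reads the same on both strands. The 3-unit form, GAANNTTCNNGAA or TTCNNGAANNTTC, contains overlapping 2-unit matches. The Hspd1 stretch (chr1:55088053-55088082, minus strand, -150 to -121) lies in the first exon of a longer Hspd1 transcript and is shared with the divergent gene Hspe1. The Hspb1 stretch (chr5:135887789-135887848, plus strand, -130 to -71) lies upstream of its gene. The Hspb6 stretch (chr7:30553171-30553230, plus strand, -130 to -71) belongs to 1 of its RefSeq starts and lies between exons. The Hspa2 stretch (chr12:76404310-76404369, plus strand, -60 to -1) lies between exons too, and no searched element was found in the Hspa2 windows.
Hspd1: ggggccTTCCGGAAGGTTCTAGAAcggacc
Hspb1: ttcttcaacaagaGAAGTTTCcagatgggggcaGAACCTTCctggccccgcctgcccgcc
Hspb6: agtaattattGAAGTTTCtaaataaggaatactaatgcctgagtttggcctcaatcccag
Hspa2: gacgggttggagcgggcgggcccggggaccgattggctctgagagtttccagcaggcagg

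The ER stress element was found for 3 of the 56 members with a window, which are Hspa5, Hsp90b1 and Dnajc3 (5.36%), and for 37 of 27025 genes in all (0.137%). The 2-unit heat shock element was found for 15 of the 56 members (26.8%) and for 4587 of all genes (17.0%). The 3-unit element was found for 4 members (7.14%), namely Dnajb6, Hspd1, Hspe1 and Hsph1, and for 179 of all genes (0.662%). The Hsp90b1 window held another match to the ER stress element at -212 to -194, outside the stretch shown. A match describes letters in a window and is not a measured site.

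Counts of each later day were set against day 0, and those of day 14 also against day 3, in edgeR (quasi-likelihood test). P-values were adjusted over the 18107 genes tested by the Benjamini-Hochberg method, and a gene was called higher or lower at an adjusted p under 0.05. The 6 comparisons with day 0 share the 4 day 0 libraries. The spread of each gene was estimated over all days together. Standard errors and p-values against day 0 can therefore be too small for genes that varied more within day 0. Levels are given as FPKM in each library in the order of replicates 1 to 4. Fold changes are log2 values from the counts after a correction for library composition, so they can differ slightly from the ratio of FPKM values. Whether groups overlapped is stated for the FPKM values as printed.

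On day 3, 26 of the 67 members tested were called higher and 27 lower, while 31.8% of all genes tested were higher and 34.8% lower. On day 5, 25 members were higher and 28 lower (all genes 29% and 30.6%). On day 7, 17 were higher and 28 lower (25.6% and 24.8%), and 8 were higher in a fit of the 8 libraries compared. On day 10, 11 were higher and 24 lower (23.5% and 26.9%). This split was 15 and 18 without composition normalization and 14 and 19 with upper quartile factors.

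On day 12, 10 members were higher and 24 lower (all genes 21.7% and 25.6%), against 21 and 14 without composition normalization. On day 14, 21 were higher and 27 lower (28.2% and 34.5%), against 26 and 22 without it. Between day 14 and day 3, 26 were higher and 24 lower (34.2% and 32.8%), against 32 and 17 without it. That setting moved the median log2 fold change of all genes by 0.14 on day 12, 0.13 on day 14 and 0.18 between day 14 and day 3, and upper quartile factors moved the last by 0.14.

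Large changes were counted separately. The study's methods ask for an absolute log2 fold change above 1.5 with a p under 0.05 before adjustment. By these criteria 6 members were called on day 3 against 18.9% of all genes tested. The numbers were 7 on day 5 (13.9%), 8 at day 7 (9.4%), 0 on day 10 (9.47%), 3 at day 12 (7.39%), 5 on day 14 (14%) and 3 between day 14 and day 3 (18.6%). The median absolute log2 fold change of the members was 0.39 on day 3 and 0.36 on day 14, and that of all genes was 0.51 and 0.45.

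Some members were called in each of the 6 comparisons, which share the day 0 libraries. Only Hspb11, which encodes a subunit of the intraflagellar transport complex, was called on no day. Dnaja1, Hsp90aa1, Hspa14 and Hspd1 were higher on all 6 days. Dnaja4, Dnajb4, Dnajb5, Dnajc27, Hspa1l, Hspa12a, Hspb2, Hspb6 and Hspb8 were lower on all 6 days, although the call of Hspb2 on day 10 was lost in a fit of the 8 libraries compared (edgeR, adjusted p = 0.0644). The mean FPKM was highest on day 14 for 26 of the 67 members tested and on day 0 for 17.

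**Figure D1:**
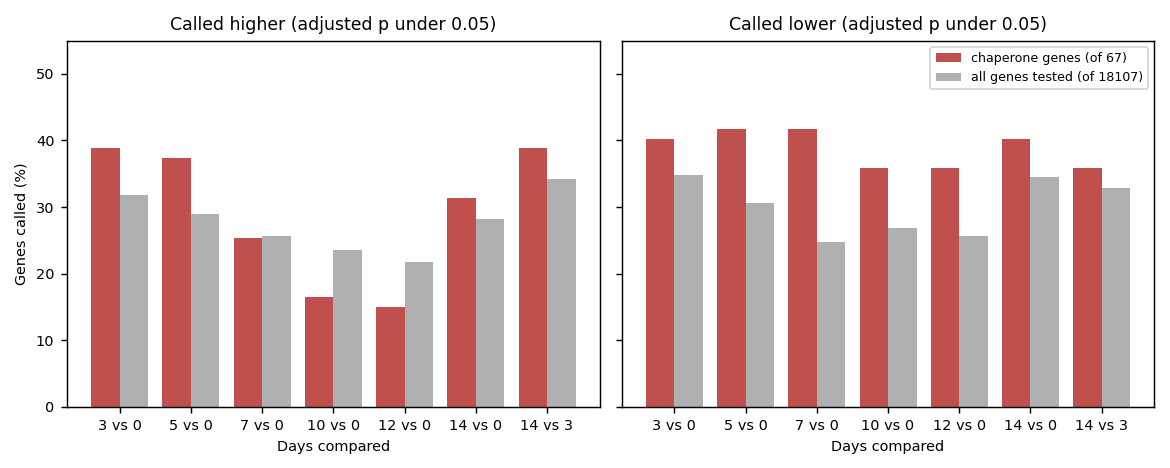
Share of the 67 chaperone genes tested (red) and of the 18107 genes tested (grey) called higher (left) or lower (right), in percent, in each comparison. On day 7 the bars for lower stood at 41.8% and 24.8%.

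The chaperones of the ER lumen were high early. Of 8 genes, 7 were higher on day 3 and at day 5, and 5 on day 7, when the median log2 fold change was 0.34, 0.36 and 0.19. Of all genes tested, 31.8%, 29% and 25.6% were higher on these days. Dnajc1 was the gene not called on day 3 (log2 fold change 0.05, edgeR, adjusted p = 0.572). On day 14 no gene of the list was higher and 5 were lower (median -0.23), beside 28.2% and 34.5% of all genes. The 5 calls of day 7 were 0 when only the 8 libraries of that comparison were fitted.

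Hspa5 encodes BiP, the Hsp70 of the ER lumen. Its level was 136, 160.4, 157 and 108 FPKM on day 0, 244, 248, 238 and 252 at day 3 and 252, 235, 234 and 263 on day 5. Every library of days 3 and 5 lay above every day 0 library, and day 0 replicate 4 was the lowest of all. The log2 fold change was 0.87 (standard error 0.08, edgeR, adjusted p = 2.36e-10) on day 3. By day 14 the level was 170.3, 163, 148 and 155 FPKM, within the range of day 0 or just above it.

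Hsp90b1 encodes GRP94, the Hsp90 of the ER. It stood at 148, 179, 178 and 115 FPKM on day 0, 274, 276, 263 and 288 at day 3 and 188, 174, 153 and 182 on day 14. The day 3 libraries were all above the day 0 libraries, and the day 14 libraries overlapped with day 0. The log2 fold change on day 3 was 0.89 (standard error 0.09, edgeR, adjusted p = 8.68e-10). On day 0, Hspa5, Hsp90b1 and Dnajc3 were all lower in replicates 1 and 4 than in replicates 2 and 3, like the fibroblast markers, whose part in this was not tested.

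The ER lumen list also holds DnaJ partners of BiP. Dnajb11 (ERdj3), which binds unfolded chains and passes them to BiP, was at 24.2, 24.5, 23.4 and 20.9 FPKM on day 0 and 32.8, 33.5, 34.2 and 34.2 on day 3, without overlap (0.59, standard error 0.06, edgeR, adjusted p = 1.23e-09). Dnajb9 (ERdj4) was at 25.7, 25.1, 22.2 and 23.8 FPKM on day 0, 26.5, 30.4, 26.1 and 30.7 at day 3 and 18.5, 18.3, 16.9 and 18.5 on day 14, so that it lay above day 0 first and below it at the end. Its change on day 3 was 0.29 (standard error 0.06, edgeR, adjusted p = 0.00032). Dnajc3 (P58IPK), an inhibitor of eIF2alpha kinases that also acts in the ER lumen, was at 18.8, 26.7, 26.5 and 16.7 FPKM on day 0 and 25.6, 25.8, 26.2 and 25.5 on day 3, with overlap. Its call on day 3 (0.28, standard error 0.09, edgeR, adjusted p = 0.0104) was lost with upper quartile factors (edgeR, adjusted p = 0.109) and in a fit of the 8 libraries compared (edgeR, adjusted p = 0.186).

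A list of 17 other ER stress and folding genes, which the choice by symbol does not take in, also holds chaperones. Of these genes, 14 were higher and 1 lower on day 3 (all genes 31.8% and 34.8%), and 0 were higher and 15 lower between day 14 and day 3 (34.2% and 32.8%). Median log2 fold changes were 0.54 and -0.61. The protein disulphide isomerase Pdia4 rose from a mean of 33.6 to 73.9 FPKM on day 3, and Hyou1, the Hsp110 of the ER, from 13.6 to 24.8 FPKM. Herpud1, which takes part in ER associated degradation, was the gene of the list that was lower, with means of 54.2 and 29.2 FPKM. Leukocyte markers moved with these genes. All 10 were higher on day 3, when their summed level was 10450 to 12630 FPKM against 1134 to 1621 at day 0, and 8 were lower on day 14. Their part in the result was not tested.

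Mitochondrial chaperones were high around day 5 and again on day 14. Of 8 genes, 6 were higher on day 3, at day 5 and on day 14, while at day 12 only Hspd1 was higher and 4 were lower. Of all genes tested, 31.8%, 29% and 28.2% were higher on days 3, 5 and 14, and on day 12 21.7% were higher and 25.6% lower. The 4 lower calls of day 12 were 0 without composition normalization and 2 without day 0 replicate 4. Medians of the log2 fold change were 0.37 on day 3, -0.14 at day 12 and 0.41 on day 14.

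Hspa9 encodes mortalin, the Hsp70 of the matrix and motor of protein import. Its level was 108, 87.8, 88.4 and 109 FPKM on day 0, 188, 184, 185 and 182 at day 5, 99.4, 104, 99.9 and 104 on day 12 and 158, 150.2, 143 and 143 at day 14. The libraries of days 5 and 14 lay above day 0, while those of day 12 overlapped with it. The log2 fold change was 0.95 (standard error 0.06, edgeR, adjusted p = 6.34e-13) on day 5 and 0.67 (standard error 0.06, edgeR, adjusted p = 4.6e-10) on day 3.

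Hspd1 (Hsp60) and Hspe1 (Hsp10) form the folding chamber of the matrix. Hspd1 was at 63, 58.99, 57.5 and 61.3 FPKM on day 0, 82.7, 88.3, 92.5 and 93.7 at day 3, 73.5, 73.5, 77.9 and 76.1 on day 12 and 116, 120.4, 108 and 111 at day 14. Each later library lay above each day 0 library on every day. The change was 0.63 (standard error 0.06, edgeR, adjusted p = 1.2e-10) on day 3 and 0.79 (standard error 0.06, edgeR, adjusted p = 1.69e-12) on day 14. Hspe1 was at 84.97, 74.02, 75.3 and 76.5 FPKM on day 0 and 152, 139, 129.7 and 139 on day 14, again without overlap (0.72, standard error 0.06, edgeR, adjusted p = 1.92e-10). Exons of this pair overlap on opposite strands by 112 bases.

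Dnajc15, a partner of the import motor, was at 50.5, 43.8, 46.04 and 47.6 FPKM on day 0, 82, 84.2, 87.5 and 98.5 at day 5, 44.3, 42.7, 46.9 and 46.9 on day 12 and 77.7, 78.5, 72.4 and 64.8 at day 14. It was above day 0 without overlap on days 3, 5, 7, 10 and 14, and its change on day 5 was 0.95 (standard error 0.07, edgeR, adjusted p = 1.25e-11). Dnajc30, which is linked to the turnover of complex I, went the other way on day 3 with means of 19.7 and 15.2 FPKM, and 26.2% of its exon bases overlap with Bud23. Of 6 other mitochondrial chaperones and proteases, 5 were higher on day 3 and at day 14 (all genes 31.8% and 28.2%), among them Trap1, the Hsp90 of the matrix, with means of 37.6, 57.3 and 55.6 FPKM on days 0, 3 and 14. Brown fat markers had a summed level of 251.5 to 338 FPKM on day 0, 1636 to 1882 at day 5, 157 to 172 on day 12 and 778 to 1005 at day 14, with Ucp1 at means of 0.423 FPKM on day 0 and 1054 at day 5. Of these 4 markers, 3 were higher and 1 lower on days 3, 5 and 7, and all 4 were higher on day 14. Elovl3 was the lower one on day 5, with means of 44.3 and 29.7 FPKM. Their part in the changes of the mitochondrial genes was not tested.

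The cytosolic Hsp70 and Hsp110 genes were split on day 3. Of 9 genes, 3 were higher and 5 lower (median log2 fold change -0.40), beside 31.8% and 34.8% of all genes tested. On day 14, 6 were higher and 1 was lower (median 0.23), beside 28.2% and 34.5% of all genes. Between day 14 and day 3, 7 were higher and 1 was lower, beside 34.2% and 32.8% of all genes. The constitutive Hspa8 was higher on day 3 and the inducible Hspa1a and Hspa1b were lower.

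Hspa1a and Hspa1b encode the stress inducible Hsp70. Hspa1a was at 9.77, 7.24, 6.59 and 8.97 FPKM on day 0, 3.42, 2.91, 2.75 and 2.98 at day 3 and 7.83, 7.92, 9.81 and 7.16 on day 14. Hspa1b was at 17.2, 14.8, 15.3 and 19.4 FPKM on day 0, 9.39, 7.16, 7.21 and 6.82 at day 3 and 21.04, 22.4, 20.02 and 20 on day 14. The day 3 libraries of both genes lay below their day 0 libraries, while on day 14 Hspa1a overlapped with day 0 and Hspa1b lay just above it. The log2 fold change on day 3 was -1.38 (standard error 0.13, edgeR, adjusted p = 2.22e-10) for Hspa1a and -1.07 (standard error 0.09, edgeR, adjusted p = 1.29e-11) for Hspa1b.

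The transcripts of the pair share many sequences, since 47.1% of the 100-base words of Hspa1a occur in Hspa1b, so the split of reads between them is uncertain. Their summed counts, an alternative chosen after seeing the data, changed by -1.16 (standard error 0.09) on day 3, 0.01 at day 12 and 0.10 on day 14 on the log2 scale. On day 14 Hspa1b alone was called higher (0.20, standard error 0.08, edgeR, adjusted p = 0.0431), and the sum was not called (edgeR, adjusted p = 0.32). From day 3 to day 14 the sum changed by 1.26 (standard error 0.09).

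Hspa8, the constitutive Hsc70, was far more abundant than the inducible genes, with 533, 406, 401 and 460.4 FPKM on day 0, 544, 541, 553 and 553 at day 3 and 589.7, 623, 618 and 602 on day 5. The libraries of days 3 and 5 lay above day 0, where replicate 1 was the highest (on day 5 0.47, standard error 0.06, edgeR, adjusted p = 2.52e-07). Hsph1 (Hsp110) was at 7.02, 6.496, 5.597 and 6.21 FPKM on day 0, 5.75, 5.91, 5.81 and 5.72 at day 3 and 9.07, 9.02, 8.42 and 8.997 on day 14. Day 14 lay above day 0, and between day 14 and day 3 the change was 0.43 (standard error 0.06, edgeR, adjusted p = 4.63e-07). On day 3 Hsph1 was not called (log2 fold change -0.07, edgeR, adjusted p = 0.313), and the value was 0.04 without day 0 replicate 1. With upper quartile factors it was called lower (log2 fold change -0.16, edgeR, adjusted p = 0.0164). Hspa4l, another Hsp110 gene, was at 4.76, 4.76, 4.59 and 4.53 FPKM on day 0, 3.45, 3.23, 3.39 and 3.55 at day 3 and 5.81, 5.79, 4.76 and 6.39 on day 14. It lay below day 0 on day 3 (-0.40, standard error 0.08, edgeR, adjusted p = 6.22e-05) and was higher at day 14 than on day 3 (0.55, standard error 0.08, edgeR, adjusted p = 4.33e-07).

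Hspa2, best known from the testis, had the largest rise on day 14 among the members called higher. It was at 6.87, 4.77, 5.13 and 6.06 FPKM on day 0, 2.86, 2.82, 2.83 and 2.92 at day 3, 4.25, 3.83, 3.97 and 4.34 on day 10, 9.66, 10.3, 8.102 and 10.8 at day 12 and 14.8, 15.4, 14.2 and 13.9 on day 14. Days 3 to 10 lay below day 0 and days 12 and 14 above it, so that the order of the groups was turned. The log2 fold change was -0.94 (standard error 0.10, edgeR, adjusted p = 4.62e-09) on day 3 and 1.23 (standard error 0.10, edgeR, adjusted p = 1.95e-11) on day 14. Between day 14 and day 3 it was 2.17 (standard error 0.10, edgeR, adjusted p = 1e-16), the highest value of any member named there.

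Hair follicle markers moved with Hspa2. All 8 were lower on day 3 and higher at day 12 and day 14, and their summed level was 108 to 819 FPKM on day 0, 3.41 to 6.02 at day 3 and 1551 to 2040 on day 14. On day 7 it was 498 to 684 FPKM and no marker was lower, whereas Hspa2 was lower on day 7. The part of hair follicles in the result was not tested.

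Hspa14, a ribosome bound Hsp70 that helps nascent chains, was at 18.99, 16.4, 16.9 and 17.5 FPKM on day 0, 31.8, 34.6, 32.5 and 34.1 at day 12 and 40.98, 38.6, 34 and 36.3 on day 14. The late libraries lay above day 0, with a change of 0.79 (standard error 0.06, edgeR, adjusted p = 7.95e-12) on day 12 and 0.98 (standard error 0.06, edgeR, adjusted p = 2.94e-14) on day 14.

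Hspa1l, a further testis Hsp70 in the same cluster as Hspa1a, fell on every day. It was at 3.47, 2.33, 3.28 and 3.64 FPKM on day 0, 0.797, 0.828, 0.667 and 0.69 at day 3, 1.17, 1.08, 1.46 and 1.29 on day 10 and 0.447, 0.802, 0.575 and 0.572 at day 14. No library of a later day reached the day 0 libraries. The log2 fold change was -2.04 (standard error 0.18, edgeR, adjusted p = 1.52e-10) on day 3, -2.37 (standard error 0.19, edgeR, adjusted p = 2.6e-11) at day 7 and -2.54 (standard error 0.19, edgeR, adjusted p = 4.98e-12) on day 14, the last from 42 to 75 counts a library. Of its exon bases, 71.9% overlap with an antisense transcript, and the sources used here do not say that counting used the strand.

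Of the divergent Hsp70 genes, Hspa12a fell on all 6 days, with means of 4.73 FPKM on day 0, 1.75 at day 3 and 2.79 on day 14. Hspa12b, which is known from endothelial cells, was at 4.44, 5.65, 5.34 and 4.58 FPKM on day 0, 4.797, 5.44, 5.63 and 5.24 at day 3 and 3.89, 4.34, 4.49 and 4.33 on day 14. It was not called on day 3 (log2 fold change 0.13, edgeR, adjusted p = 0.129), and it was lower at day 14 than on day 3 (-0.49, standard error 0.08, edgeR, adjusted p = 2.98e-06). Of 6 endothelial markers, 5 were higher on days 3, 5 and 7 (median log2 fold changes 0.68, 0.85 and 0.59). Hspa12b changed by 0.13, 0.04 and 0.04 on these days. All 6 markers were lower at day 14 than on day 3, and their part in the result was not tested.

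The cytosolic Hsp90 genes diverged. Hsp90aa1, the inducible form, was at 48.7, 45.1, 44.5 and 39.6 FPKM on day 0, 75.5, 77.6, 78.6 and 83.96 at day 3, 60.8, 62.4, 53.8 and 59.6 on day 10 and 88.1, 89.3, 67.4 and 84.2 at day 14. It lay above day 0 without overlap on every later day, and its change was 0.88 (standard error 0.07, edgeR, adjusted p = 7.24e-12) on day 3, 0.52 (standard error 0.07, edgeR, adjusted p = 3.58e-07) at day 7 and 0.66 (standard error 0.07, edgeR, adjusted p = 8.77e-09) on day 12. Hsp90ab1, the constitutive form, was about an order of magnitude more abundant, with 587, 494, 493 and 570.5 FPKM on day 0, 480.3, 471, 469 and 458 at day 3 and 658, 633, 685 and 632 on day 14. It was lower on day 3 by a small amount (-0.14, standard error 0.06, edgeR, adjusted p = 0.0464), and this call was lost in 6 of 8 fits that left out 1 library, for example without day 0 replicate 1 (log2 fold change -0.04, edgeR, adjusted p = 0.612). It was higher on day 14 than on day 3 (0.29, standard error 0.06, edgeR, adjusted p = 9.38e-05).

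**Figure D2:**
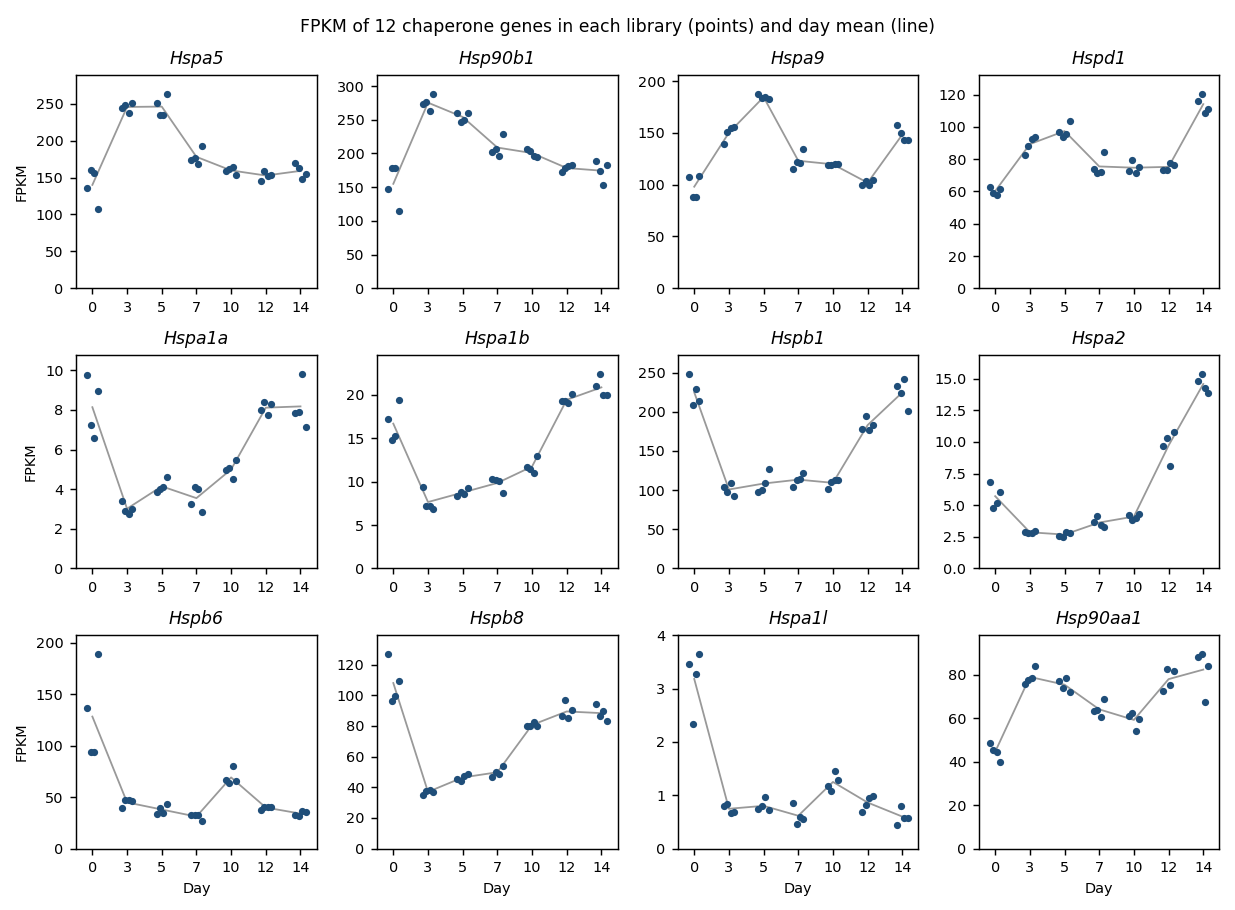
FPKM (vertical axes, each from 0) of 12 chaperone genes in each library (points) by day (horizontal axes, evenly spaced), with the mean of each day as a line. Hspa5 and Hsp90b1 were highest on days 3 and 5, Hspa1a, Hspa1b and Hspb1 were low at days 3 to 10 and back near day 0 by day 14, and Hspa2 rose to a mean of 14.6 FPKM on day 14.

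Most small heat shock protein genes were lower on the later days than on day 0. Of 7 genes tested, 5 were lower on day 3, 6 at day 5, 6 on day 7, 4 at day 10, 6 on day 12 and 5 at day 14, and none was higher on these days. The shares of all genes called lower were 34.8%, 30.6%, 24.8%, 26.9%, 25.6% and 34.5%. On day 5 the call of Hspb7 was lost in a fit of the 8 libraries compared (edgeR, adjusted p = 0.0816). The median log2 fold change of the list was -1.46 on day 3, -0.48 at day 10 and -1.39 on day 14.

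Hspb1 (Hsp25) is abundant in keratinocytes and muscle. Its level was 248, 209, 229 and 214 FPKM on day 0, 104, 97.6, 109 and 92.6 at day 3, 101, 110.4, 113 and 113 on day 10 and 234, 224, 242 and 201 at day 14. The groups of days 3 to 10 lay below day 0, and day 14 overlapped with it. The change was -1.10 (standard error 0.08, edgeR, adjusted p = 2.72e-12) on day 3 and -1.09 (standard error 0.08, edgeR, adjusted p = 1.29e-11) on day 10. Hspb8, a partner of Bag3 in the disposal of damaged muscle proteins, was at 127, 96.2, 99.6 and 109.5 FPKM on day 0, 35.1, 37.6, 38.3 and 36.8 at day 3 and 94.1, 86.8, 89.6 and 82.9 on day 14. All day 3 libraries lay below 96.2 FPKM, the lowest of day 0, and so did those of day 14 (on day 3 -1.49, standard error 0.07, edgeR, adjusted p = 2.89e-16). Both genes were higher on day 14 than on day 3. Of 8 keratinocyte markers, 1 was higher and 6 were lower on day 3 (median log2 fold change -0.96), while 5 were higher and 1 was lower at day 14 than on day 3 (median 0.46). On day 14 against day 0, 1 was higher and 5 were lower (median -0.47), whereas Hspb1 was not called (-0.13, edgeR, adjusted p = 0.18). On day 10, when Hspb1 was low, 1 marker was higher and 5 were lower than on day 0 (median -0.72). The mean summed level of the markers was 2706 FPKM on day 10 and 2967 on day 0. Their part in the result was not tested.

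Hspb6 (Hsp20), which is found in skeletal and smooth muscle, stayed low. It was at 136, 93.6, 93.9 and 189 FPKM on day 0, 39.03, 47.5, 46.98 and 45.8 at day 3, 66.8, 63.96, 79.8 and 65.8 on day 10 and 32.5, 31.6, 36.2 and 35.5 at day 14. No later library reached day 0, and replicates 1 and 4 of day 0 were above replicates 2 and 3. The change was -1.46 (standard error 0.15, edgeR, adjusted p = 2.05e-09) on day 3, -2.05 (standard error 0.15, edgeR, adjusted p = 8.83e-12) at day 7, -1.83 (standard error 0.15, edgeR, adjusted p = 1.57e-10) on day 12 and -2.04 (standard error 0.15, edgeR, adjusted p = 5.92e-12) at day 14.

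Hspb2 and Hspb3 form a complex in muscle. Hspb2 was at 27.3, 15.6, 16.03 and 27.5 FPKM on day 0, 6.91, 7.02, 6.79 and 7.38 at day 3 and 8.91, 8.82, 8.92 and 9.34 on day 14, with a change of -1.56 (standard error 0.16, edgeR, adjusted p = 1.61e-09) at day 3 and -1.64 (standard error 0.16, edgeR, adjusted p = 1.44e-09) on day 7. Hspb3 was at 6.43, 4.62, 4.95 and 7.26 FPKM on day 0, 1.15, 0.755, 0.884 and 1.67 at day 3, 4.27, 3.87, 5.05 and 4.76 on day 10 and 1.81, 1.65, 1.002 and 1.401 at day 14. On days 3 and 14 both genes lay below day 0 without overlap, and on day 10 both overlapped with it. The change of Hspb3 was -2.32 (standard error 0.26, edgeR, adjusted p = 9.74e-09) on day 3, -2.16 (standard error 0.26, edgeR, adjusted p = 3.64e-08) at day 5, -2.17 (standard error 0.26, edgeR, adjusted p = 5.06e-08) on day 7 and -2.11 (standard error 0.25, edgeR, adjusted p = 4.24e-08) at day 14. Of the exon bases of Hspb2, 30.2% overlap with Cryab on the opposite strand. Cryab, the alpha B crystallin and itself a small heat shock protein, was lower as well, with means of 121 FPKM on day 0, 55.1 at day 3 and 46.4 on day 14.

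Hspb7, a chaperone of heart and skeletal muscle, split the day 0 libraries. Its levels were 62.2, 15.02, 16.8 and 52.9 FPKM on day 0, 24.2, 28.2, 27.5 and 26.9 at day 3, 12.2, 10.3, 10.01 and 11.5 on day 7, 31.1, 34.3, 38.6 and 34.1 at day 10 and 8.7, 9.42, 10.2 and 11.6 on day 14. On day 0, replicates 1 and 4 were more than 50 FPKM while replicates 2 and 3 were under 20 FPKM, and day 3 fell between them. On day 3 it was not called (log2 fold change -0.41, edgeR, adjusted p = 0.175). The value was 0.03 without day 0 replicate 1, and it was called lower in the fits without day 0 replicate 2 or without day 0 replicate 3. It was lower on day 12 (-1.63, standard error 0.27, edgeR, adjusted p = 1.58e-05) and day 14 (-2.01, standard error 0.28, edgeR, adjusted p = 3.94e-07).

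Skeletal muscle markers moved with these genes. All 12 were lower on each of the 6 days, with medians of the log2 fold change between -2.55 and -1.51, and none was at 0. Their summed level was 14760 to 24320 FPKM on day 0, 2973 to 3841 at day 3, 7084 to 8628 on day 10 and 3999 to 4635 at day 14. Day 10 was thus the highest of the later days for the markers, as it was for the means of Hspb2, Hspb3, Hspb6 and Hspb7, while the mean of Hspb1 was 109 FPKM on day 10 and that of Hspb8 was 80.6 FPKM. The part of muscle in these results was not tested.

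**Figure D3:**
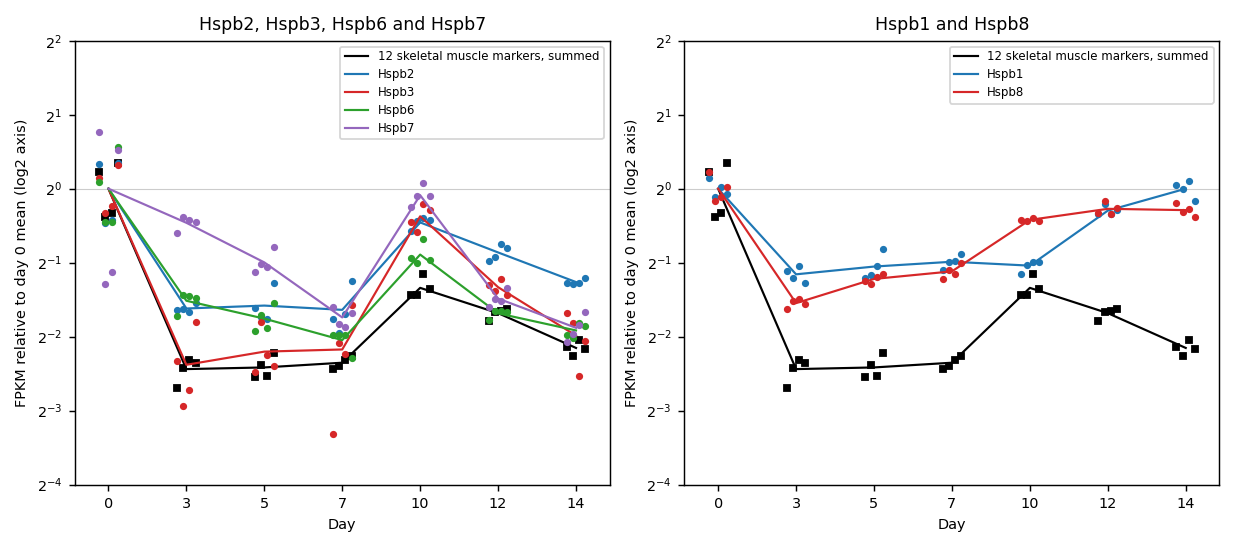
FPKM relative to the mean of day 0 (vertical axes on a log2 scale) of 4 small heat shock protein genes (left) and of Hspb1 and Hspb8 (right), with the sum of 12 skeletal muscle markers in black in both panels. Points are libraries and lines join the means of each day (evenly spaced). The lines of Hspb2, Hspb3, Hspb6 and Hspb7 had a peak on day 10 like the markers, and those of Hspb1 and Hspb8 rose to day 14 or day 12.

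Of 8 cytosolic DnaJ genes of classes A and B, 2 were higher and 5 lower on day 3, beside 31.8% and 34.8% of all genes tested. On days 5 and 10, 1 was higher and 7 were lower, and on day 7, 1 was higher and 6 were lower. Of all genes tested, 29%, 25.6% and 23.5% were higher on days 5, 7 and 10, and 30.6%, 24.8% and 26.9% were lower. On day 12, 2 were higher and 3 lower, beside 21.7% and 25.6% of all genes. On day 14, 2 were higher and 4 lower, beside 28.2% and 34.5% of all genes. The 7 lower calls were 4 on day 5 without day 0 replicate 1 or in a fit of the 8 libraries compared, and on day 10 they were 3 without day 0 replicate 4 and 4 with upper quartile factors.

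Dnaja1, a general partner of Hsc70, was higher throughout, and most on days 12 and 14. It was at 28.1, 29.8, 28.1 and 27.3 FPKM on day 0, 32.8, 33.5, 33.2 and 34.7 at day 3, 44, 45.8, 43.1 and 44.3 on day 12 and 50.8, 48.96, 45.5 and 48.3 at day 14. Each later group lay above day 0, and the change was 0.30 (standard error 0.05, edgeR, adjusted p = 5.1e-06) on day 3 and 0.65 (standard error 0.05, edgeR, adjusted p = 7.03e-12) on day 14.

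Dnaja4 went the other way, with 15.1, 11.9, 12.3 and 18.2 FPKM on day 0, 4.48, 5.12, 5.14 and 5.25 at day 3 and 5.92, 6.703, 6.33 and 6.704 on day 14. The groups did not overlap with day 0, and the change on day 3 was -1.47 (standard error 0.10, edgeR, adjusted p = 1.85e-13). Of its exon bases, 44.1% overlap with Wdr61 on the opposite strand, and Wdr61 was higher on day 3 (log2 fold change 0.35, edgeR, adjusted p = 6.33e-05) and on day 14 (0.48, edgeR, adjusted p = 9.7e-07).

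Dnajb5, a further partner of Hsc70, was at 17.7, 13.1, 13.3 and 18.3 FPKM on day 0, 4.45, 4.76, 4.53 and 4.92 at day 3, 8.41, 7.73, 8.34 and 7.98 on day 10 and 4.95, 5.03, 5.09 and 5.37 at day 14. It lay below day 0 throughout, with a change of -1.69 (standard error 0.08, edgeR, adjusted p = 5.34e-16) on day 3 and -1.74 (standard error 0.08, edgeR, adjusted p = 1.11e-15) on day 14. Dnajb4 was at 8.66, 7.01, 6.96 and 9.99 FPKM on day 0, 3.69, 4.297, 4.65 and 4.48 at day 3, 7.63, 7.19, 7.002 and 7.23 on day 10 and 5.398, 5.13, 4.66 and 5.26 at day 14. On day 3 it lay below day 0 (-0.87, standard error 0.09, edgeR, adjusted p = 1.23e-09), and on day 10 it overlapped with it. The means of Dnaja4, Dnajb4 and Dnajb5 were higher on day 10 than on any other later day, as were the muscle markers.

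Dnajb1 (Hsp40), the stress inducible partner of Hsp70, was not called on day 3 and was higher on day 14. It was at 18.7, 15.4, 17.96 and 22.8 FPKM on day 0, 16.8, 16.2, 18.8 and 17.7 at day 3 and 23.5, 24.7, 25.9 and 23.7 on day 14. Day 3 overlapped with day 0 and was not called (log2 fold change -0.05, edgeR, adjusted p = 0.599), and the sign turned in 4 of 8 fits that left out 1 library. Between day 14 and day 3 it was higher without overlap (0.31, standard error 0.08, edgeR, adjusted p = 0.00103). Dnajb2, a DnaJ that sorts clients to the proteasome, had means of 13.3 FPKM on day 0, 7.59 at day 3 and 14.9 on day 14.

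The remaining DnaJ genes act at membranes, vesicles, ribosomes and in RNA processing. Dnajc6 (auxilin) uncoats clathrin vesicles and was at 1.17, 0.87, 0.766 and 1.33 FPKM on day 0, 0.255, 0.304, 0.244 and 0.109 at day 3, 0.132, 0.169, 0.276 and 0.275 on day 5 and 0.975, 0.8, 0.817 and 0.973 at day 14. Days 3 and 5 lay far below day 0, and day 14 overlapped with it. The change was -2.12 (standard error 0.24, edgeR, adjusted p = 1.23e-08) on day 3, -2.24 (standard error 0.24, edgeR, adjusted p = 6.98e-09) at day 5 and 1.78 (standard error 0.24, edgeR, adjusted p = 2.5e-07) between day 14 and day 3, with 24 to 67 counts a library on day 3.

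Dnajc13 (RME-8), which acts on early endosomes, was higher on day 3. Its levels were 10.5, 12.1, 11.2 and 9.73 FPKM on day 0, 19.96, 19.7, 20.4 and 19.1 at day 3, 18.4, 18.8, 18.5 and 11.7 on day 5 and 10.2, 10.4, 10.2 and 10.5 at day 14. Day 3 lay well above day 0, and on day 5 replicate 4 stood apart from the other libraries. The change was 0.92 (standard error 0.09, edgeR, adjusted p = 1.53e-09) on day 3, 0.45 (standard error 0.09, edgeR, adjusted p = 0.000215) on day 7 and -1.12 (standard error 0.09, edgeR, adjusted p = 2.47e-11) between day 14 and day 3. Dnajc27, a DnaJ with a Rab like domain, fell on all 6 days, with 3.41, 3.27, 3.58 and 5.09 FPKM on day 0 and 1.85, 1.91, 1.98 and 2.18 on day 10 (-1.01, standard error 0.13, edgeR, adjusted p = 2.31e-07). Of the 4 vesicle genes, 2 were higher and 2 lower on day 3 (all genes 31.8% and 34.8%).

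Dnajc9, a chaperone of histones, was at 19.3, 16.3, 18.1 and 16.1 FPKM on day 0, 14.7, 12.8, 15.7 and 14.9 at day 3, 24.01, 24.1, 21.9 and 23.5 on day 10 and 32.8, 31.7, 30.9 and 31.3 at day 14. Days 10 and 14 lay above day 0, with a change of 0.37 (standard error 0.07, edgeR, adjusted p = 5.41e-05) on day 10. All 5 markers of cycling cells were higher on each of the 6 days, and their summed level was 16.6 to 36.9 FPKM on day 0, 62.5 to 67.7 at day 10 and 112 to 135 on day 14. On day 3 it was 53.8 to 57.8 FPKM, when Dnajc9 was lower. Their part in the changes of Dnajc9, and of the Hsp70 and TRiC genes called higher on day 14, was not tested. Of 5 DnaJ genes of ribosome and RNA, 3 were higher and 2 lower on day 3, and 3 were higher and none lower at day 14, beside 31.8% and 34.8% of all genes on day 3 and 28.2% and 34.5% at day 14. Dnajc17, a splicing factor partner in this list, had means of 8.19 FPKM on day 0, 5.32 at day 3 and 13.5 on day 14. The 3 DnaJ genes of the ER membrane were all lower on day 14 (all genes 34.5%), with Dnajb14 at means of 3.80 FPKM at day 0 and 2.72 on day 14.

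Dnajb13, an axonemal DnaJ of the germ cell list, had the highest log2 fold change on day 3 among the members with a mean of at least 1 CPM (count scaled to library size) in the higher group. It was low throughout, at 0.191, 0.24, 0.204 and 0.125 FPKM on day 0, 0.456, 0.602, 0.864 and 0.617 at day 3 and 0.206, 0.385, 0.275 and 0.269 on day 14. Day 3 lay above day 0 and rested on 31 to 59 counts a library against 8 to 17 (1.78, standard error 0.29, edgeR, adjusted p = 5.6e-06). It was lower on day 14 than on day 3 (-1.34, standard error 0.28, edgeR, adjusted p = 0.000131). Of its exon bases, 11.2% overlap with Ucp2 on the opposite strand, which had 17645 to 19318 counts a library on day 3 and 12578 to 17366 at day 0, and 43419 to 52131 on day 14. Reads that lie in the overlapping bases cannot be assigned to 1 gene of the pair without the strand. Dnajb3, the other gene tested in that list, had means of 2.42 FPKM on day 0 and 1.29 on day 3.

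Regulators and co-chaperones were read from lists of genes not taken in by symbol. The 3 heat shock factor genes were all lower on day 3, as were 34.8% of all genes tested. Hsf1, the main factor of the heat shock response, had means of 11.3 FPKM on day 0, 8.43 at day 3 and 12.9 on day 14, and Hsf2 had 2.64, 1.41 and 1.76. Of 18 co-chaperones of Hsp70 and Hsp90, 3 were higher and 10 lower on day 3, and 7 were higher and 5 lower on day 14. Of all genes tested, 31.8% were higher and 34.8% lower on day 3, and 28.2% and 34.5% on day 14. The 10 lower calls of day 3 were 6 without day 0 replicate 4.

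Fkbp4, an Hsp90 co-chaperone of steroid receptors, had means of 65.8 FPKM on day 0, 39.7 at day 3 and 106 on day 14. Stip1, which links Hsp70 to Hsp90, had 47.7, 56.3 and 75.6 FPKM. Unc45b, the myosin chaperone of striated muscle, had 14.9, 5.10 and 4.71 FPKM. Of the 8 subunits of the cytosolic chaperonin TRiC, 7 were higher on day 3 and at day 14, and 8 were higher on day 14 than at day 3, beside 31.8%, 28.2% and 34.2% of all genes. The 7 calls of day 3 were 3 without day 0 replicate 3 or with upper quartile factors. Cct3 had means of 53.9, 73.1 and 95.6 FPKM on days 0, 3 and 14.

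Day 14 was also set directly against day 3, without the day 0 libraries in the contrast. The largest rises were those of Hspa2, Dnajc6 and Hspa1b (1.26, standard error 0.09, edgeR, adjusted p = 2.87e-13), and the largest falls those of Hspb7 (-1.60, standard error 0.27, edgeR, adjusted p = 9.22e-06), Dnajb13 and Dnajc13. All 8 ER lumen chaperones were lower, with a median of -0.74, beside 32.8% of all genes tested. Among them was Hspa5 (-0.81, standard error 0.08, edgeR, adjusted p = 7.79e-10), without overlap between the days. Dnajb9, Dnajc3 and Dnajb11 changed by -0.84, -0.81 and -0.68 (edgeR, adjusted p = 6.34e-12, 1.25e-08 and 7.19e-11). Of the 7 small heat shock proteins tested, 2 were higher and 2 lower, beside 34.2% and 32.8% of all genes. Without composition normalization 4 of them were higher.

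Wherever groups did not overlap on the log2 scale of normalised CPM, a two-sided exact permutation test gave p = 0.0286, the smallest that 4 against 4 libraries allow.

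**Figure D4:**
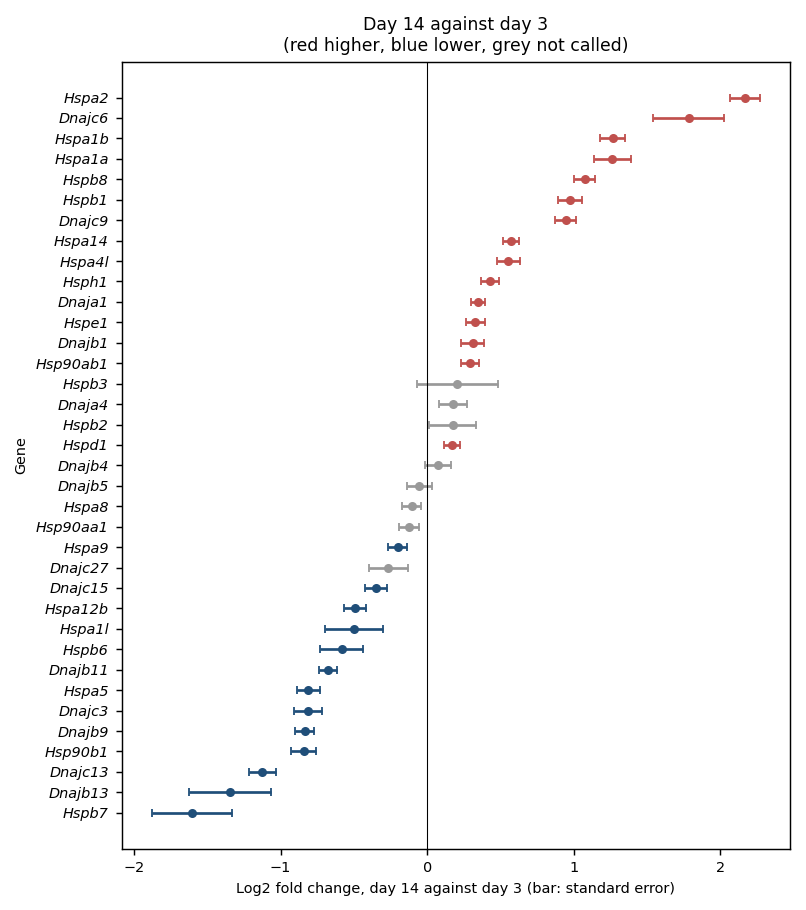
Log2 fold change of day 14 against day 3 (horizontal axis, bars for the standard error) for the chaperone genes named in the text, in order of their value. Red points were called higher, blue points lower and grey points neither, and the values ran from -1.60 for Hspb7 to 2.17 for Hspa2.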

How the data were processed

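The deposited table of raw counts held whole reads per gene symbol, and the deposited FPKM table held values per kilobase of gene, scaled to library size by the authors. The submitters' processing notes name fastp, R 3.2.0 and the build mm10. The aligner, the counter, the annotation and the use of strand were not given in the sources used here. Counts were tested in R 4.3.3 with edgeR 4.0.16 (low count filter, TMM factors, quasi-likelihood test, all 28 libraries in 1 fit, Benjamini-Hochberg adjustment over all genes tested). Alternatives used DESeq2 1.42.0 and limma 3.58.1, the latter on log2(FPKM + 1). The script was tested on simulated data. FPKM values are given per library or as means over the 4 libraries of a day. The members, the lists and the fixed named genes were chosen with earlier results of these data known. Besides these, the 3 highest and the 3 lowest called members of each comparison were named, given a mean of at least 1 CPM in the higher group. Hspa12a, Dnajb2, Dnajb3, Dnajb14, Dnajc17, Dnajc30 and the examples from other lists were chosen after their values were seen. Sequences are from RefSeq, gene overlaps from GENCODE M21.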

Additional observations from a re-analysis of the deposited data

Results flagged for a closer look

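Among 252 groups of 4 libraries examined for the chaperone genes named, 14 held a library that stood apart from the other 3 by Dixon's criterion, and chance gives about 1 in 20, which is 12.6. Values are log2 CPM (counts scaled to library size). On day 3, replicate 1 stood apart for Hspa1b (4.797, others 4.371 to 4.439) and for Hspb6 (6.306, others 6.571 to 6.603). On day 5, replicate 4 stood apart for Dnajc13 (6.612, others 7.244 to 7.267). On day 7, replicate 4 stood apart for Hspa1b (4.621, others 4.874 to 4.892) and for Hspb6 (5.676, others 6.003 to 6.015). On day 10, replicate 3 stood apart for Hspb6 (7.28, others 6.913 to 6.973) and Hspb8 (7.241, others 7.15 to 7.152), replicate 1 for Dnajb4 (5.562, others 5.48 to 5.493) and replicate 4 for Hspa14 (5.132, others 5.169 to 5.176). On day 14, replicate 1 stood apart for Dnaja1 (7.43, others 7.319 to 7.338), Dnaja4 (4.13, others 4.272 to 4.277) and Hspe1 (6.779, others 6.6 to 6.617), and replicate 4 for Dnajc3 (6.384, others 6.325 to 6.332) and Hspa2 (5.181, others 5.302 to 5.324).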

How the results depend on the processing

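The numbers of chaperone genes called were within 1.5 times the reported ones under DESeq2 size factors, upper quartile factors, no filter on low counts, a filter of at least 10 counts in every library, the DESeq2 test and a replicate block. Without composition normalization, 21 were higher and 14 lower on day 12. In edgeR fits of the 8 libraries compared, 8 were higher on day 7. With limma on log2(FPKM + 1), 17 were higher on day 10, and 24 were higher and 13 lower on day 12. With the criteria of the study's methods, which ask for a larger change, the numbers higher and lower were 1 and 5 on day 3, 1 and 6 at day 5, 2 and 6 on day 7, 0 and 0 at day 10, 0 and 3 on day 12, 0 and 5 at day 14, and 2 and 1 between day 14 and day 3. The cause of the other shifts was not tested. With 1 library left out, the numbers higher ranged from 25 to 28 on day 3 and from 20 to 24 on day 14, and those lower from 22 to 29 and from 23 to 28. Hsph1, Hspb7 and Dnajb1, which were not called on day 3, changed sign when 1 library was left out, with ranges of the log2 fold change from -0.13 to 0.036 (Hsph1), from -0.66 to 0.029 (Hspb7) and from -0.13 to 0.11 (Dnajb1). The labels give the same replicate numbers on each day, but same-numbered libraries did not deviate together (correlations from -0.07 to 0.06, with 8 of 28 libraries closest to their own number). With the replicate block, 25 were higher and 26 lower on day 3, and the call of Hsp90ab1 on day 3 was lost (edgeR, adjusted p = 0.0528). Depth limits Dnajb13, which rested on 8 to 17 counts a library on day 0.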
